A study of Ambystoma mexicanum with 6 samples.

Results

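The comparison set 4C cells of systemically activated limbs against 4C cells of the blastema in the axolotl (Ambystoma mexicanum), with 2 ATAC-seq libraries a side. Its members were the accessible sites formed by joining all peaks of these 4 libraries that overlapped by 1 bp or more, 3411 sites made of 4857 peaks, where all 6 libraries of the series gave 3529 sites. ATAC-seq marks open chromatin by the cuts of the Tn5 transposase, and a peak is a stretch of DNA cut more often than its surroundings. Every library came from 10000 live cells of wild type animals sorted for a DNA content of 4C, that of cells that have copied their genome, so both groups consist of cells in late phases of the cell cycle. The systemically activated group (replicates 4 and 5) came from limb tissue 14 days after an amputation, per the design text. The blastema group (replicates 1 and 2) came from blastema together with wound epidermis, with no day given. Systemically activated titles carry the letters CTL, which the labels do not explain. The labels do not say how many animals a library holds or whether replicates came from separate animals, so the spread between replicates may be technical.

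The blastema is the mass of proliferating progenitor cells that forms beneath the wound epidermis of an amputated limb and rebuilds the lost part. Systemic activation is the entry of cells elsewhere in the body, the uninjured limbs included, into the cell cycle after an amputation. Setting the groups side by side asks how far chromatin in dividing cells away from the wound is like that in dividing cells at the regenerating site. The blastema samples contain wound epidermis and the limb samples contain the tissues of a whole limb, so cell type and state cannot be told apart in these bulk libraries. No gene was assigned to a site because no annotation of the build of the peak lists was used here, and cell type markers could thus not be checked.

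The systemically activated lists were long and the blastema lists short, with 1389 and 2962 peaks against 248 and 258. Sequencing depth is unknown, as no read numbers come with the peaks. Peaks were called by the authors in each library, and the area of a peak is the authors' own value. It was used here to rank peaks within a list and to cut lists to 248 peaks, the length of the shortest one. At that cut the area was 106.3 at rank 248 and 105.8 at rank 249 in systemically activated 4, and 153.3 and 153.1 in systemically activated 5. In blastema 2 it was 24.6 and 24.5.

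The blastema lists were nearly contained in the systemically activated ones. Of 271 sites with a peak in a blastema library, 251 (92.6%) also had one in a systemically activated library. Those 251 sites were 7.40% of the 3391 sites with a systemically activated peak. All 4 libraries shared 170 sites (4.98% of 3411), and these held 74.6% and 74.8% of the peaks of blastema 1 and 2. They held 13.0% of the peaks of systemically activated 4 and 6.18% of those of systemically activated 5. By summed area they held 98.0% and 97.3% in the blastema lists against 82.0% and 63.5% in the systemically activated lists, sums that grow with the number of peaks called. The blastema peaks at sites without any systemically activated peak were few and weak. There were 14 in blastema 1, with a median rank of 221 and a median width of 85.5 bp, and 11 in blastema 2, with a median rank of 220 and a median width of 106 bp.

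Overlap fell with rank in both directions, but less steeply for blastema peaks, which were sought in the longer lists. The 50 strongest peaks of each blastema list all overlapped a peak in both systemically activated lists, and the 50 strongest of each systemically activated list all overlapped a peak in both blastema lists. Of blastema 1 peaks at ranks 151 to 200, 84.0% were found in each systemically activated list (42 of 50, Wilson 95% CI 71.5 to 91.7). For blastema 2 the share was 90.0% in systemically activated 4 and 88.0% in systemically activated 5. In the other direction the peaks of systemically activated 4 at these ranks were found for 32.0% in blastema 1 (16 of 50, 20.8 to 45.8) and for 20 of 50 in blastema 2, and those of systemically activated 5 for 32.0% in both. The weakest blastema peaks were missed by every other list in part. Of blastema 1 peaks from rank 201 on, 60.4% and 62.5% overlapped a peak of systemically activated 4 and 5, and 43.8% overlapped one of blastema 2 (21 of 48, 30.7 to 57.7). These shares are of the same 48 peaks and were not tested against each other. The list searched differed in length between these shares, and its part in them was not tested.

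**Figure D1:**
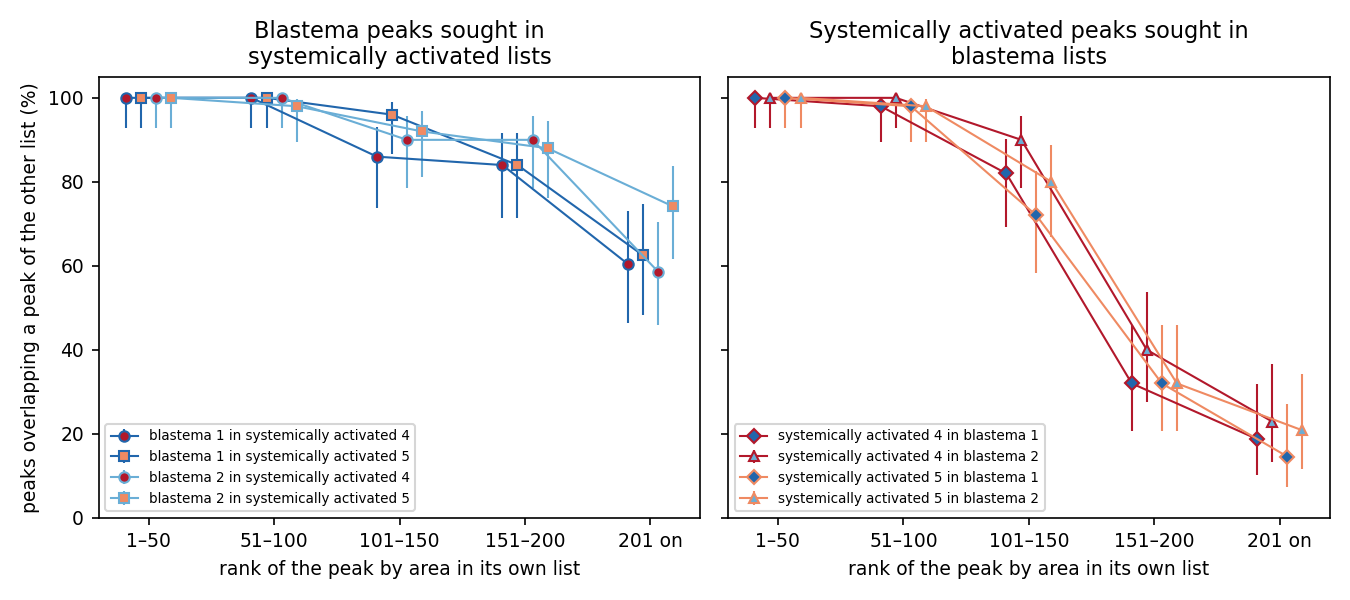
Share of peaks (%) that overlap a peak in a library of the other group, by rank of area in their own list, with Wilson 95% intervals; line colour gives the library the peaks come from, symbol the library searched. Blastema peaks sought in the full, longer systemically activated lists stay at 58.6% or more in every rank class. Systemically activated peaks sought in the shorter blastema lists fall to between 14.6% and 22.9% from rank 201 to 248.

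At the 170 shared sites, the order of the sites by area was much the same in both groups. Each site was ranked among the 170 by its summed area, 1 being the largest, so that every library had a list of equal length. Spearman's rho across these sites, which are not independent, was 0.924 between the systemically activated replicates and 0.948 between the blastema replicates. Between groups it was 0.872 to 0.923. The median difference in rank was 8 places between the systemically activated replicates and 7 between the blastema replicates. Between groups it ran from 8 places for systemically activated 4 with blastema 1 to 14 for systemically activated 5 with blastema 1. Of the 50 strongest sites of a library, 44 to 46 were among the 50 strongest of any other, replicate or not.

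The strongest site was the same in all 4 libraries and nearly the same in extent. It lies on chromosome arm 5q, segment 0, from 57768606 to 57773666. Positions are those of the peak lists, in which many arms are divided into numbered segments and whose genome build is not given in the sources used here. Its width was 5058 and 5050 bp in systemically activated 4 and 5, and 5049 and 5057 bp in blastema 1 and 2. The site on arm 3p, segment 1, from 259876344 to 259880513 ranked 2 in each library. The other sites of high mean rank were on 5q, segment 0, from 58675102 to 58679233 (mean rank 3.5), on 2p, segment 0, from 116659249 to 116663004 (4.25), and on 3p, segment 1, from 259791226 to 259794183 (4.5). The 2p site ranked 3 in both systemically activated libraries and 5 and 6 in blastema 1 and 2. It was 3739 and 3678 bp wide in the former and 3407 and 3189 bp in the latter.

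At 44 of the 170 sites (25.9%) both systemically activated ranks were above both blastema ranks, and at 40 (23.5%) the order was the opposite. Together these were 84 sites (49.4%), and the groups overlapped at the other 86. Ranks of the same 170 sites have the same total in every library, so a shift of all sites in a common direction cannot show in them. No site passed an adjusted p of 0.05 in limma on normal scores of the ranks (ranks converted to a standard normal scale; 0% of 170 called, smallest adjusted p = 0.156). Without adjustment, 34 sites had a p under 0.05 in that fit, 18 of them with the higher score in systemically activated and 16 in blastema. No single site was thus called for relative area by this test, although the groups did not overlap at 84. With 2 libraries a side, a site not called is not shown to be equal.

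Sites relatively stronger in blastema were led by one on arm 1q, segment 1, from 374071621 to 374071961 (341 bp). It ranked 103 and 98 in blastema 1 and 2, and 150 and 162 in systemically activated 4 and 5. The difference in normal score, systemically activated minus blastema, was −1.19 ± 0.20 (SE; limma adjusted p = 0.156). A site on 5q, segment 0, from 20426970 to 20427885 ranked 69 and 64 in blastema, 145 and 121 in systemically activated. It was also wider in blastema, at 834 and 897 bp against 430 and 685 bp. A 13q site from 20785959 to 20786434 ranked 111 and 110 in blastema, 164 and 148 in systemically activated. Next were a site on 6q, segment 0, from 178876955 to 178877452, with ranks of 128 and 137 in blastema against 158 and 166, and one on 4p, segment 0, from 19199373 to 19199724, with 140 and 136 against 168 and 157. None of these reached significance after adjustment, with adjusted p-values of 0.156 to 0.287 in limma.

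Among the 5 named sites relatively stronger in systemically activated, a pair lay next to each other on 13q, from 448159349 to 448159588 and from 448159750 to 448160032. The first ranked 140 and 116 in systemically activated 4 and 5 against 152 and 170 in blastema 1 and 2, and the second 143 and 119 against 151 and 167. With peaks joined within 500 bp the pair fell into a single site. A 3q site in segment 1 from 291013128 to 291013514 ranked 165 and 145 against 170 and 166. A 5p site in segment 1 from 250835253 to 250835654 ranked 133 and 103 against 150 and 159. On 6p, segment 0, a site from 43377272 to 43378153 ranked 99 and 98 in systemically activated and 156 and 125 in blastema. For these 5 sites the limma adjusted p ran from 0.231 to 0.393. Normal scores stretch the ends of the order, and the 13q pair and the 3q site had a blastema rank of 170, 167 and 170 among the 170 sites. A 2p site in segment 0 from 169960575 ranked 32 and 30 in systemically activated against 77 and 66 in blastema. Its score difference of 0.71 ± 0.09 (SE, limma adjusted p = 0.156) was smaller than that of the 5.

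**Figure D2:**
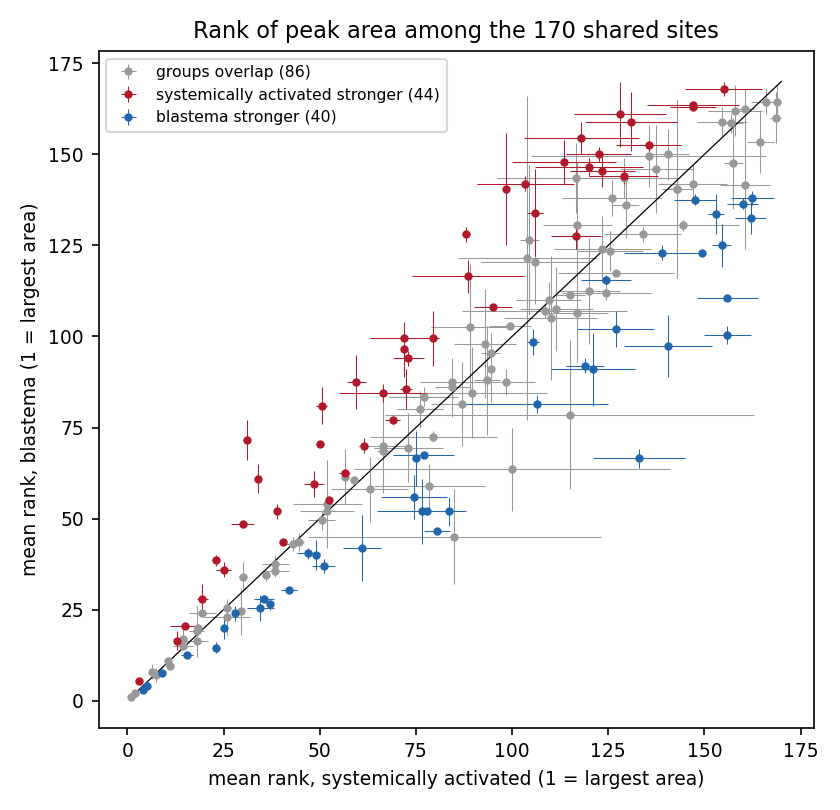
Mean rank of summed peak area among the 170 shared sites (1 = largest) in systemically activated against blastema libraries; bars span the 2 replicates of a group and colour gives the order of the groups. The strongest sites lie on the diagonal, and the 44 and 40 sites whose groups do not overlap spread to either side of it along the whole order.

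Shared sites lay in runs along the arms. Of the 170 shared sites, 110 (64.7%) lay within 100 kb of another, in 40 runs. In the 13 runs of 3 or more sites, 20 of 56 sites were relatively stronger in both blastema libraries and 5 in both systemically activated libraries. Among the 54 sites in runs of 2, these numbers were 6 and 16, and among the 60 sites alone they were 14 and 23. Runs were looked at after the ranks were known, sites of a run are not independent, and the difference was not tested. The run on 13q from 20670004 to 20790967 had 5 sites, and all 5 were relatively stronger in blastema. Their ranks, from the first to the last position, were 8, 28, 16, 111 and 13 in blastema 1 and 7, 25, 13, 110 and 12 in blastema 2. In systemically activated 4 they were 9, 37, 24, 164 and 17, and in systemically activated 5 they were 9, 37, 22, 148 and 14. Except at the fourth site, these shifts were of 1 to 12 places. On 3p, segment 1, 4 of the 6 sites between 259785883 and 259882708 were relatively stronger in blastema and none in systemically activated. The largest run, 12 sites on 5q, segment 0, between 58602429 and 58687642, was mixed, with 4 sites relatively stronger in blastema and 2 in systemically activated.

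Over all 170 shared sites, 25.9% were relatively stronger in systemically activated and 23.5% in blastema. By arm, 7 of the 12 shared sites on 12q were relatively stronger in systemically activated and 1 in blastema, and on 6p the numbers were 6 and 0 of 9. On 3p they were 0 and 7 of 11, and on 13q 3 and 8 of 16. On 5q they were 2 and 6 of 16, and on 4p 1 and 3 of 12. Counts were nearly even on 7q (3 and 3 of 15), 1q (4 and 3 of 15) and 1p (2 and 2 of 14). These arms were chosen after their values were seen.

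Unlike rank, width in bp has no fixed total, so the balance between groups in width cannot be set against that in rank. Over whole lists, systemically activated peaks were narrower, with medians of 199 and 223 bp against 346.5 and 343 bp in blastema (means 211 ± 17.0 and 345 ± 2.47 bp, SD, n = 2 each). Among the 248 strongest peaks of each list they were wider, with medians of 443 and 552.5 bp against 346.5 and 352.5 bp (498 ± 77.4 and 350 ± 4.24 bp, SD, n = 2 each). The difference of the means was −133.75 bp in the full lists and 148.25 bp in the lists of equal length. In both cases the groups did not overlap, and a 2-sided exact permutation test gave p = 0.333, the smallest that 2 libraries against 2 allow. Peaks narrower than 150 bp made up 21.8% and 20.6% of the 248 strongest peaks of the blastema lists, against 4.84% and 0.403% in systemically activated 4 and 5. The cut was by area, which includes width. It kept 248 of 1389 and 248 of 2962 systemically activated peaks, but all 248 of blastema 1 and 248 of 258 in blastema 2. Peaks of low area were thus removed almost only from the systemically activated lists, and widths after the cut are not independent of it.

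The shared sites, each joined from peaks of all 4 libraries, were more often wider in systemically activated than in blastema. This holds for widths in bp, before the centring on library medians described below. Their median covered width was 535 and 565 bp in systemically activated 4 and 5, and 474.5 and 501 bp in blastema 1 and 2. At 87 of the 170 sites (51.2%) both systemically activated libraries were wider than both blastema libraries, and at 14 (8.24%) both were narrower, so that the groups did not overlap at 101 (59.4%). The median ratio of group mean widths was 1.09. Between single libraries, the median ratio of systemically activated to blastema ran from 1.05 to 1.11. Between replicates the median ratio was 0.993 for systemically activated 4 to 5 and 1.02 for blastema 1 to 2. Where each library had a single peak, at 133 sites, the systemically activated peaks reached further by a median of 13 bp at the lower coordinate and 13.5 bp at the higher one. At 38 of these sites both replicates reached further on both sides, and at 2 sites both blastema replicates did. At these 133 sites the median distance between summits was 9 to 14 bp between libraries of different groups. It was 13 bp between the systemically activated replicates and 12 bp between the blastema replicates. Summits lay within 50 bp of each other at 71.4% to 75.9% of the sites between groups. Between replicates this share was 74.4% for systemically activated and 77.4% for blastema. The systemically activated lists were also the longer ones, and with depth unknown the part of list length in the result was not tested. Within systemically activated, replicate 5 (2962 peaks) was wider than replicate 4 (1389 peaks) at 95 of the shared sites and narrower at 75. Within blastema, where the lists had 248 and 258 peaks, blastema 1 was wider than blastema 2 at 109 sites and narrower at 57.

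The median width ratio was highest at narrow sites. At the narrowest 57 sites, with a mean width of up to 388.5 bp, the median ratio was 1.15, and 30 sites were wider in systemically activated against 5 in blastema. It was 1.09 at the 56 sites of middle width and 1.06 at the widest 57, from 745.5 bp upward, where 30 sites were wider in systemically activated and 3 in blastema. Shared sites were split into several peaks at 14 and 21 sites in blastema 1 and 2, and at 10 and 12 in systemically activated 4 and 5. Of the 44 sites relatively stronger in systemically activated, 42 were also wider there. Of the 40 relatively stronger in blastema, 11 were wider in blastema and 6 wider in systemically activated. Area includes width, so these counts are not independent.

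In limma on log2 width centred on each library's median over the shared sites, 1 of 170 sites (0.588%) passed an adjusted p of 0.05. This was the 3q site in segment 1 from 291013128, with 371 and 351 bp in systemically activated 4 and 5 and 79 and 85 bp in blastema 1 and 2. By area it ranked 170 and 166 of the 170 shared sites in blastema 1 and 2, so its blastema peaks were among the weakest shared. In systemically activated 4 and 5 it ranked 165 and 145. The ratio of mean widths was 4.40, and the centred log2 difference was 1.97 ± 0.11 (SE, adjusted p = 0.0164). Without adjustment 23 sites had a p under 0.05 in that fit, 19 wider in systemically activated. Without centring 7 sites passed in limma, all wider in systemically activated, and the median log2 difference over all 170 sites was 0.12. Centring on the library medians subtracted 0.17 from each log2 difference, more than that median, and left a median of −0.05. After it, 32 sites (18.8%) were wider in both systemically activated libraries and 54 (31.8%) in both blastema libraries, 86 without overlap (50.6%). The balance of these counts is set by the shift subtracted, so the direction of the excess flips with centring.

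The other sites named for width were not called in the centred fit. A site on 5q, segment 0, from 58606736 to 58607206 was 471 and 357 bp wide in systemically activated 4 and 5 and 100 bp in each blastema library (ratio 4.14, limma adjusted p = 0.0910). On 2p, segment 1, a site from 187984895 to 187985501 was 131 and 607 bp wide in systemically activated and 110 and 91 bp in blastema, so that its ratio of 3.67 rested on systemically activated 5. In the opposite direction, the 13q site from 20785959 had widths of 153 and 362 bp in systemically activated and 476 and 415 bp in blastema (ratio 0.578). A 5q site in segment 1 from 381995807 to 381997298 had 754 and 810 bp against 1480 and 1204 bp (0.583), and the 5q site from 20426970 a ratio of 0.644.

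**Figure D3:**
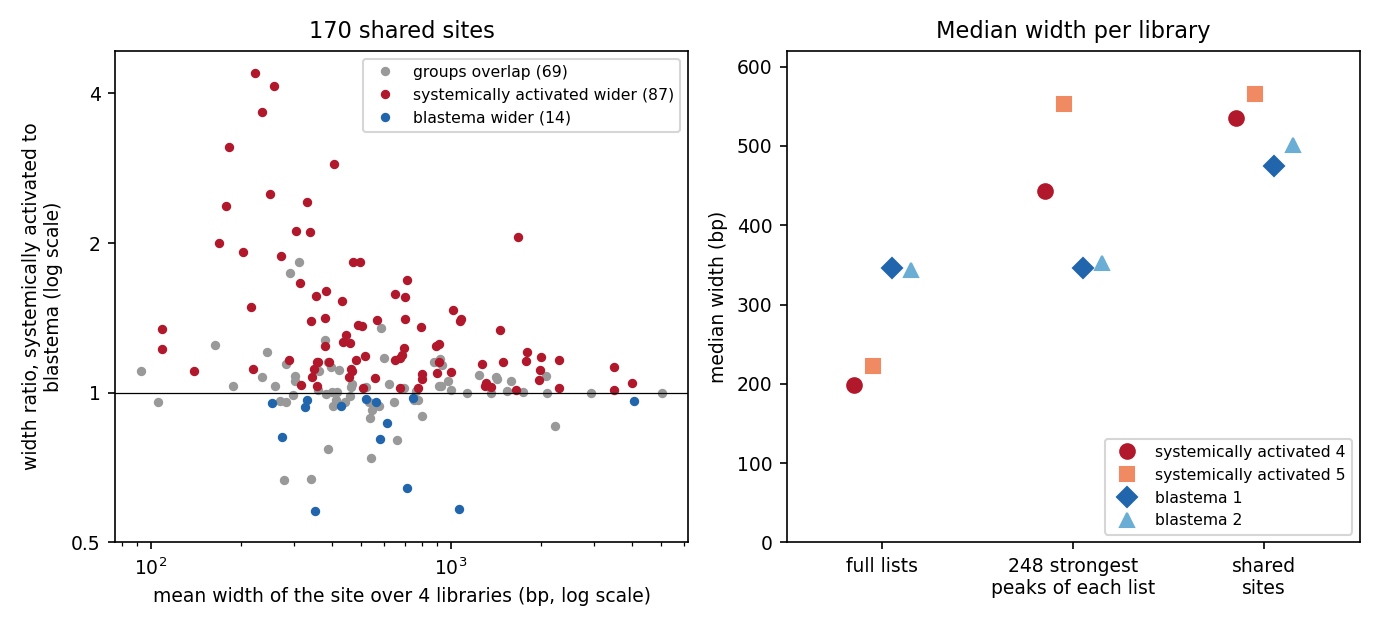
Left, ratio of mean site width, systemically activated to blastema, against mean width in bp at the 170 shared sites (both axes logarithmic). Right, median width in bp per library in full lists, in the 248 strongest peaks and at shared sites; systemically activated medians lie below blastema in full lists (199 and 223 bp) and above it in the other sets.

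Both systemically activated lists had peaks on all 28 arms, and both blastema lists on 21. No blastema peak lay on 9p, 10q, 12p, 13p or 14p, arms that held 84 peaks (6.05%) of systemically activated 4 and 165 (5.57%) of systemically activated 5. A share of 0 of 248 peaks on an arm has a Wilson 95% upper limit of 1.53%. On 9 arms there was no shared site. Over the 28 arms and the unplaced scaffolds, the share of peaks did not overlap between groups for 24 of 29 (82.8%), 15 higher in systemically activated (51.7%) and 9 higher in blastema (31.0%). With exact permutation tests the smallest possible p was 0.333, and none passed after adjustment (smallest adjusted p = 0.403).

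The largest differences toward blastema were on 5q, 7q and 13q. On 5q lay 8.87% and 11.2% of blastema 1 and 2 peaks and 3.74% and 3.71% of systemically activated 4 and 5 peaks. On 7q the shares were 8.87% and 9.30% against 3.67% and 2.84%, and on 13q 8.06% and 9.30% against 3.38% and 3.44%. These 3 arms held 16, 15 and 16 shared sites. The opposite was seen on 3q, with 5.65% and 3.88% of blastema peaks and 10.4% and 9.82% of systemically activated peaks. On 10p, systemically activated 4 had 48 peaks and systemically activated 5 had 127, against none in blastema 1 and 1 in blastema 2. On 4q the shares were 3.82% and 3.98% against 0.403% and 0.775%. The arms named were chosen after their values were seen.

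Lists of equal length narrowed most of these contrasts. Among the 248 strongest peaks of each list, 15 of 29 shares (51.7%) did not overlap between groups, 9 higher in systemically activated (31.0%) and 6 higher in blastema (20.7%), and the lowest adjusted p of the exact tests was 0.644. The mean difference on 5q, systemically activated minus blastema, went from −6.33 to −2.42 percentage points, that on 7q from −5.83 to −1.81 and that on 13q from −5.27 to −3.02. On 3q it went from 5.34 to −0.81 percentage points, with groups that overlapped. On 10p the systemically activated lists kept 5 peaks each among the strongest 248, against 0 and 1 in blastema. The arms without a blastema peak held 4 and 8 of the strongest 248 peaks of systemically activated 4 and 5.

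**Figure D4:**
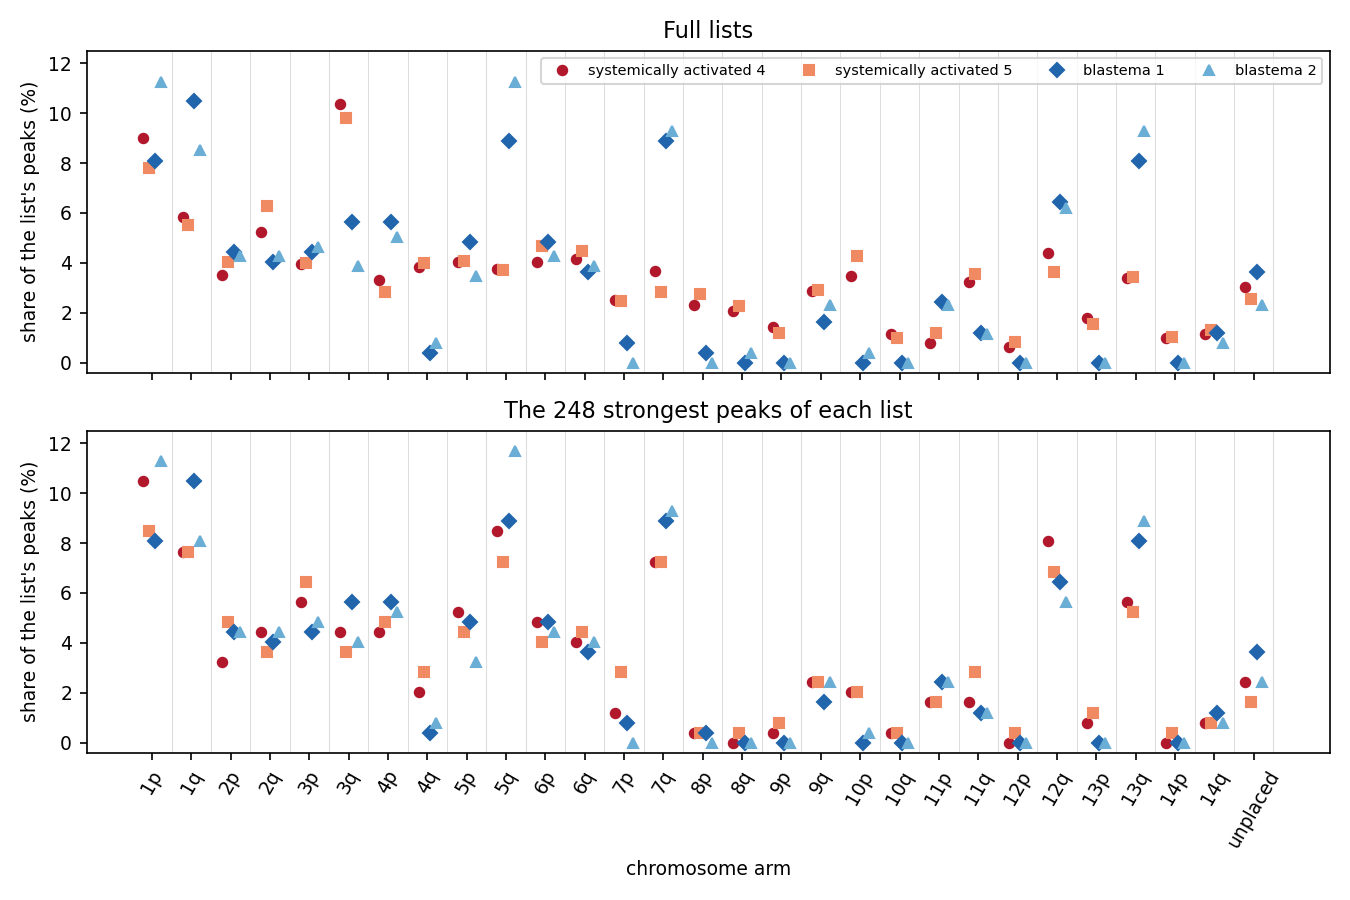
Share of a list's peaks (%) on each chromosome arm and on unplaced scaffolds, 1 symbol per library, for full lists (top) and the 248 strongest peaks of each list (bottom). Blastema shares exceed systemically activated ones on 5q, 7q and 13q in both panels, while the systemically activated excess on 3q is present in full lists alone.

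The sites that separate the groups changed with list length. In full lists, 706 sites were present in systemically activated 4 and 5 but absent from the blastema lists, and 4 had the opposite arrangement. The 706 sites were 312.5 bp wide at the median (shared sites, 642.5 bp) and lay on all 28 arms. Their median rank was 665.5 in systemically activated 4 and 926 in systemically activated 5, and the best ranks were 110 and 120. Within 100 kb of a shared site were 20 of them (2.83%), and 110 (15.6%) lay within 100 kb of another of the 706.

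With lists cut to 248 peaks, 142 of 396 sites were in all 4 libraries, 16 were systemically activated sites and 29 blastema sites. The overlap of replicates was 173 sites for systemically activated, 71.2% of the 243 sites of each library. For blastema it was 188 sites, 81.7% and 83.2% of the 230 and 226 sites of blastema 1 and 2. Between groups, 154 to 169 sites were shared, or 63.4% to 69.5% of the systemically activated and 67.0% to 74.8% of the blastema sites. Both shares of the blastema replicates lay above every share between groups, and the 71.2% of the systemically activated replicates lay between the lowest and highest of them.

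The 16 systemically activated sites had no peak in the full blastema lists either. This nearly follows from how they were defined, since the cut left blastema 1 whole and shortened blastema 2 only from 258 to 248 peaks. The median width of the 16 sites was 582.5 bp. The strongest was on 12q, segment 0, from 209877291 to 209878045, with ranks of 110 and 120 and widths of 562 and 755 bp in systemically activated 4 and 5. A site on 1q, segment 2, from 409108915 to 409109808 ranked 169 and 128, and one on 5p, segment 0, from 24154859 to 24155219 ranked 126 and 197. Next came 7q, segment 1, from 190849895 to 190850941, with ranks of 174 and 152, and 10p, segment 0, from 156164364 to 156164865, with 187 and 150. Blastema 1 had no peak anywhere on arm 10p.

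Most of the 29 blastema sites were present further down the systemically activated lists. There were 12 with a peak in both full systemically activated lists, 14 with a peak in 1 of them and 3 with none. Where present, their median rank was 587.5 of 1389 in systemically activated 4 and 468.5 of 2962 in systemically activated 5, with best ranks of 252 and 274, just below the limit of 248. Their median width was 308 bp. The strongest lay on 2p, segment 2, from 260280157 to 260280503. It ranked 106 and 110 in blastema 1 and 2 with widths of 337 and 347 bp, had rank 385 and 324 bp in systemically activated 5, and no peak in systemically activated 4. The 13q site from 20785959 named above ranked 113 and 120 in the full blastema lists and 504 and 274 in the systemically activated ones. A site on 3q, segment 3, from 241662064 to 241662622 ranked 140 and 111 in blastema and 407 in systemically activated 5, with none in systemically activated 4. On 4p, segment 0, a site from 19201688 to 19201995 ranked 139 and 130 in blastema and 256 and 282 in systemically activated, close to the limit. On 13q a site from 448164231 to 448164784 ranked 144 and 140 in blastema, 372 in systemically activated 5, and had no peak in systemically activated 4. The list searched was again far longer on the systemically activated side, so presence in full lists cannot be compared between the directions.

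**Figure D5:**
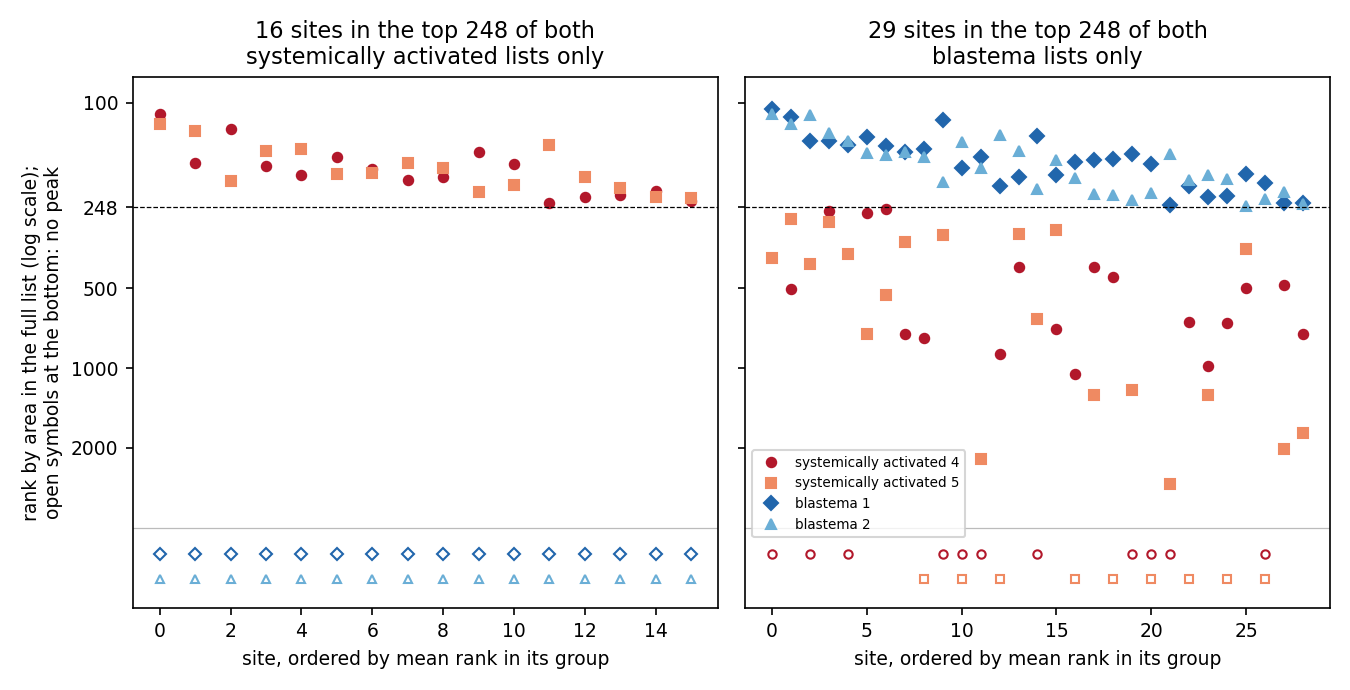
Rank of area in the full lists (logarithmic, strongest at the top) of the 16 systemically activated and 29 blastema sites found with lists cut at rank 248 (dashed line); open symbols below the grey line mark libraries without a peak. All 16 systemically activated sites lack a peak in both blastema libraries, whereas 12 of the 29 blastema sites have one in both systemically activated libraries and 14 in 1 of them.

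In full lists, 4 sites were in both blastema libraries and neither systemically activated library, 2 of them next to systemically activated peaks. The 12q site in segment 0 from 206615405 to 206615579 lay 375 and 175 bp from the nearest peak of systemically activated 4 and 5. The 5q site in segment 0 from 58602038 to 58602192 lay 236 and 253 bp away. On 7q, segment 2, a site from 318470505 to 318470799 ranked 177 and 141 in blastema 1 and 2 and was 288 and 295 bp wide, with the nearest systemically activated peak 6503 bp away in both lists. The most isolated was on 11p, from 99978434 to 99978698, where the nearest peak was 15218572 bp away in systemically activated 4 and 5359082 bp away in systemically activated 5. It ranked 201 and 231 in the blastema lists, with widths of 162 and 210 bp.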

How the data were processed

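ATAC-seq peak lists of 4 libraries were used; those of the 2 intact limb libraries entered the site total of the series alone. Bowtie2 2.3.2 and Genrich 0.5 are named in the submitters' processing notes without settings. The genome build, duplicate handling, Tn5 shift and filters are not given in the sources used here. Lists have 10 columns and no header, 1 list per library. The deposited signal (column 7) was read as peak area. The deposited score (column 5) equalled area per bp times 1000, capped at 1000, within 1 unit in 100% of records, and was not used further. Summit significance, deposited as −log10 p in column 8 and −log10 q in column 9, served in alternatives. Depth is unknown, so no precision from read numbers can be given. Wilson 95% intervals cover counting error only.

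Sites were joined by overlaps of at least 1 bp. Ranks and widths at the 170 shared sites were tested with limma 3.58.1 (R 4.3.3, 2-sided, Benjamini-Hochberg adjustment over all 170 sites). Tested on simulated data with 40 changed sites of 170, the fit recovered 37 for ranks (shift of 1) with 1 false call, and 40 for widths (log2 shift of 2) with 3 false calls. The simulated noise had the same SD at every site. In the real rank fit the SE differed between sites, for example 0.053 at the strongest 5q site and 0.87 at a 1p site from 200720325. The recovered numbers thus do not give the power in the real data, where the 1q site with a difference of −1.19 was not called. Other values used 2-sided exact permutation tests over 6 assignments of libraries. Python 3.11.15 and pandas 2.3.3 were used otherwise. Named sites were the 5 shared sites with the largest score difference each way and the 3 with the most extreme width ratio each way among sites whose groups do not overlap, the 5 of highest mean rank, and in lists of equal length the 5 of highest mean rank per group. Members and tests were chosen with earlier results of these data known. Alternatives were other joining distances, rankings, thresholds, list lengths and centring, and leaving out each library.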

Additional observations from a re-analysis of the deposited data

How the results depend on the processing

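Leaving out a library changes which sites count as shared, since fewer lists must hold a site, and the lone library of a group is then assumed to vary like the other group. No paired analysis was possible because the replicate numbers of the 2 groups (4 and 5, 1 and 2) are not shared. Over the alternatives, limma called 0 sites for rank, with 20 to 40 sites at an unadjusted p under 0.05. The number called for width was 7 without centring, 5 with peaks joined within 500 bp, 0 with lists of equal length, 2 with the widest peak of a site, and 0 to 17 with a library left out: 0 without systemically activated 4 or systemically activated 5, 17 without blastema 1 and 15 without blastema 2. The 3q site from 291013128, called for width in the main fit, was not among the 142 sites shared by lists of equal length. It was thus not tested in that setting. The difference in median peak width reversed to 148.25 bp in lists of equal length, cut by area, which includes width. On arm 3q the difference in share reversed to −0.81 percentage points there. The cause of these reversals was not tested. Arms higher in systemically activated numbered 9 in lists of equal length. With a library left out, 180 to 192 sites were shared. Sites relatively stronger in systemically activated ranged from 61 to 70 (33.7% to 38.3%) and in blastema from 64 to 71 (35.4% to 37.0%). Sites wider in systemically activated ranged from 112 to 128 (61.2% to 66.7%) and in blastema from 25 to 32 (13.0% to 17.5%). A single library overlaps the other group less readily than a pair, so these counts cannot be set against the main ones. The median width ratio ranged from 1.07 to 1.13. The sites separating the groups numbered 706 and 4 in full lists and 10 and 8 with the 150 strongest peaks, the blastema sites then being the fewer in both cases. With a library left out they ranged from 21 to 77 for systemically activated and from 36 to 64 for blastema, as fewer lists must then hold or lack a site. Of the values of single sites and arms under alternatives, 172 kept direction and side of the threshold, 7 newly passed it and 2 lost it. Arm shares among them could not change side, as their exact permutation p cannot fall below 0.333. The 2 losses were both the width of the 3q site from 291013128, without systemically activated 4 or 5. Its centred log2 difference was then 1.89 and 2.01.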
